A study of Mus musculus with 6 samples.

Results

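The 10 genes described here encode proteins of elastic fibres and microfibrils: Eln, Fbn1, Fbn2, Mfap4, Mfap5, Fbln5, Efemp1, Efemp2, Fbln1 and Fbln2. They were picked by gene symbol from the 43472 symbols of each count file, with earlier results of these data known. All 10 passed the filter on low counts that left 16152 genes for testing. The libraries were made from whole intervertebral discs (IVDs) of the thoracic and lumbar spine at postnatal day 20 (P20) in strain C57B6/J. Mutant libraries came from Col2Cre;Adgrg6 f/f mice, in which Cre driven by type II collagen sequences removes Adgrg6, an adhesion G protein-coupled receptor. By the study's account this Cre acts throughout the IVD from embryonic stages. The control libraries are called Col2Cre controls in the sample titles and wild type in the genotype labels. The study's results describe them as Cre (-) littermates, so the sources differ on whether controls carried Cre. Each group had 3 libraries, and each library pooled the IVDs of 2 to 3 mice, so differences between single mice could not be seen.

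Elastic fibres give connective tissue its recoil. They consist of a core of crosslinked elastin on a scaffold of microfibrils, which are bundles of fibrillin with associated glycoproteins, and fibulins help tropoelastin reach that scaffold before lysyl oxidases crosslink it. In the IVD, elastic fibres run mainly between and within the lamellae of the annulus fibrosus, the fibrous ring around the nucleus pulposus, and microfibrils also lie in cartilage matrix, where fibrillins bind latent transforming growth factor beta complexes.

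Counts assigned to genes ranged from 9061491 to 12017008 per library. Levels are given as CPM, the counts of a gene per 1000000 counts on genes, after scaling with edgeR's TMM factors, with the mean ± SD over 3 libraries per group. The targeted gene, listed under its older symbol Gpr126, was at 109 ± 14.7 CPM in control and 122 ± 16.1 CPM in mutant IVDs, with overlapping groups. The count covers all of its exons, so it does not check the deletion. The cartilage genes Acan and Col2a1 and the nucleus pulposus genes T and Krt19 were present in all 6 libraries, whereas Noto was at 0 in 5 of 6 libraries and Shh at 0.321 to 2.39 CPM. Control replicate 1 stood apart in 5 skeletal muscle genes, which summed to 2651 CPM there against 61.1 to 146 CPM in the other libraries. Sums of 4 glia and neuron genes also varied widely, at 206, 1608 and 562 CPM in control and 3466, 2412 and 872 CPM in mutant libraries. These overlapped between the groups, and the part of such tissue in the levels below was not tested.

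Levels among the 10 genes spanned a wide range (plot of level per kilobase). As CPM per kilobase of annotated exon in control IVDs, Eln was highest at 132 ± 25.6, followed by Efemp2 at 43.7 ± 8.28. Neither of these overlapped the next gene in the order. Fbn1 at 17.1 ± 3.66 and Mfap4 at 16.7 ± 6.39 overlapped each other, as did Efemp1 at 10.6 ± 1.97, Fbln2 at 9.54 ± 0.573 and Fbln1 at 8.91 ± 2.25. Mfap5 at 1.84 ± 0.202 and Fbln5 at 1.78 ± 0.145 also overlapped, and Fbn2 was lowest at 0.775 ± 0.315. In mutant IVDs the order was the same at the top and the bottom, with Mfap4 at 35.4 ± 11.6 per kilobase now above Fbn1 at 21.7 ± 2.94. Dividing by the longest annotated transcript kept Eln first, at 278 ± 53.8 in control IVDs, and Fbn2 last, at 0.928 ± 0.377, but placed Mfap4 at 18.2 ± 6.94 above Fbn1 at 17.3 ± 3.71.

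**Figure D1:**
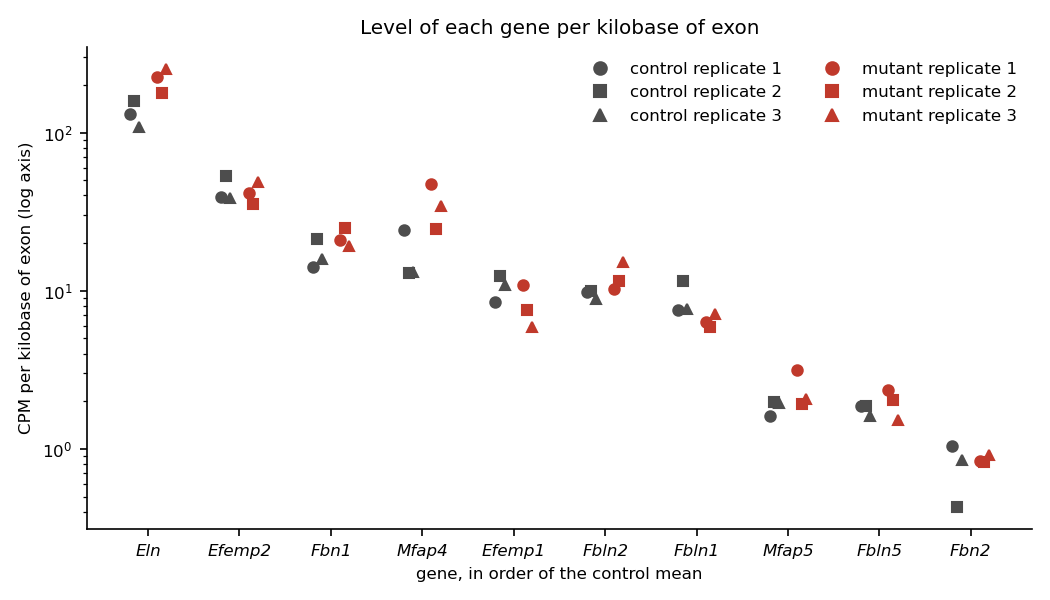
CPM per kilobase of annotated exon (log axis) for each gene, in the order of the control mean, with grey symbols for the 3 control libraries and red symbols for the 3 mutant libraries. Eln lies above every other gene in all 6 libraries, and the mutant symbols of Mfap4 lie above those of its controls.

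The comparison of mutant with control IVDs addressed how loss of Adgrg6 relates to matrix gene expression before visible disc pathology. With edgeR's quasi-likelihood test, 3 of the 10 genes had an unadjusted p under 0.05, against 7.21% of all genes tested. Eln and Mfap4 were the 2 that were higher in mutant IVDs (2.89% of all genes) and Fbln1 was the 1 that was lower (4.32% of all genes). None of the 10 passed an adjusted p of 0.05 (Benjamini-Hochberg over all genes), a threshold passed by 1 gene or 0.00619% of all genes tested. With DESeq2, 2 of the 10 had an unadjusted p under 0.05 and 0 an adjusted p under 0.05, Eln and Mfap4 both being at an adjusted p of 0.0642. Leaving out control replicate 1, the library with skeletal muscle RNA, gave an unadjusted count of 3, against 14.1% of all genes tested in that fit. Leaving out mutant replicate 3 gave a count of 1, which was Mfap4, against 5.10% of all genes. Fold changes were above 0 for 7 genes and below 0 for 3, and the median log2 fold change of the 10 was 0.25, against -0.01 over all genes tested, of which 48.4% were above 0. The mutant and control libraries did not overlap for 4 of the 10 genes, against 11.4% of all genes tested. These p-values set the difference between groups against the spread between pooled libraries, not between single mice.

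**Figure D2:**
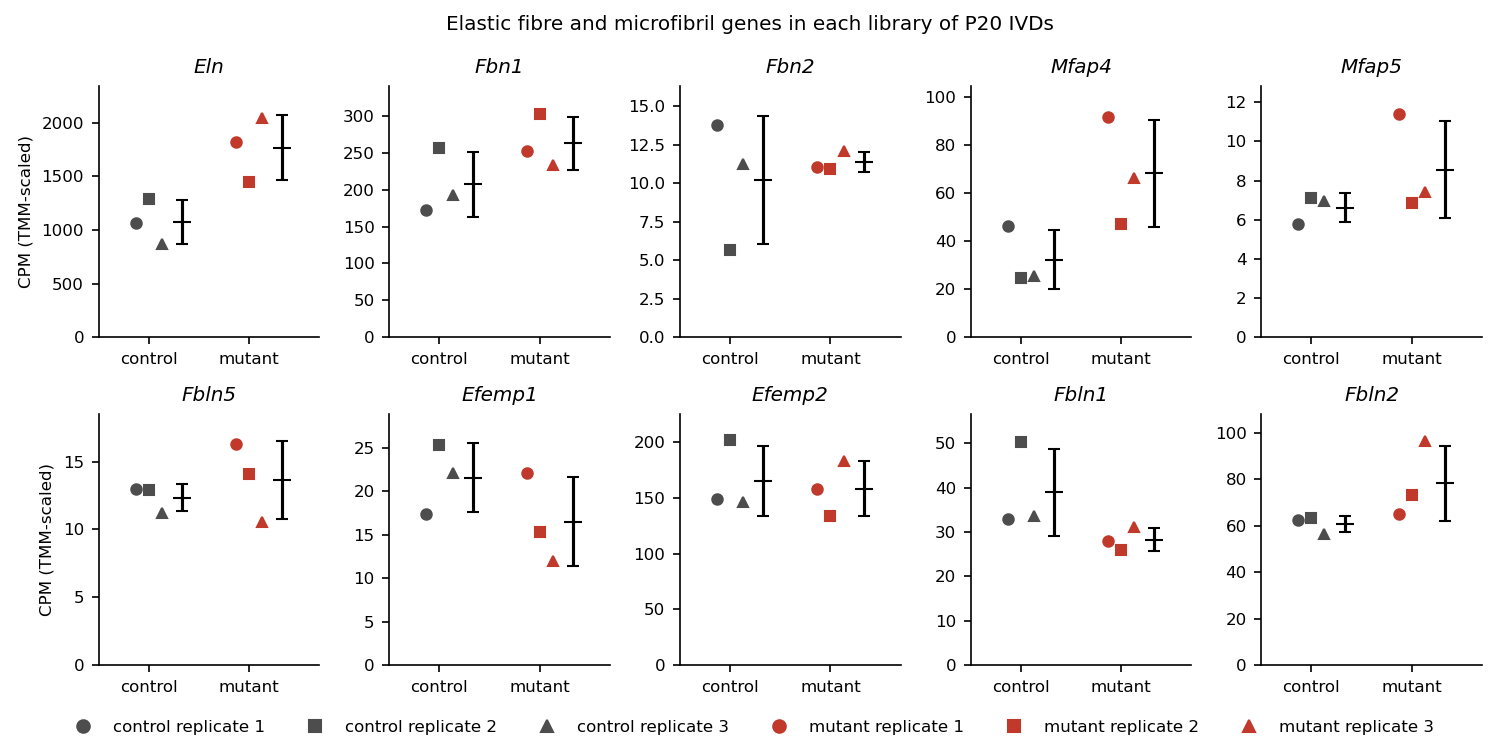
CPM of each gene in each of the 6 libraries (circle, square and triangle for replicates 1, 2 and 3; grey for control and red for mutant), with the mean and SD of each group as a black bar beside the symbols. The groups are separate for Eln, Mfap4, Fbln1 and Fbln2, and overlap for the other 6 genes.

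Eln encodes tropoelastin, the soluble precursor of the elastic fibre core, and lies on chromosome 5 from 134702593 to 134747323 on the minus strand (GRCm38). It was at 1061, 1286 and 871 CPM in control replicates 1, 2 and 3 and at 1817, 1447 and 2043 CPM in the mutant replicates. Every mutant library lay above every control library, with mutant replicate 2 the nearest to the controls. The means were 1073 ± 207 and 1769 ± 301 CPM, with a standard error (SE) of 0.25 on the log2 fold change of 0.72 (95% interval 0.17 to 1.27, edgeR unadjusted p = 0.0153, Benjamini-Hochberg adjusted p = 0.676). The unadjusted p of edgeR was above 0.05 when control replicate 3 was left out (log2 fold change 0.60, unadjusted p = 0.0538) or mutant replicate 3 (0.61, unadjusted p = 0.0589), and was 0.0277 when control replicate 1, the library with skeletal muscle RNA, was left out. In whole tissue, more cells that express a gene and more RNA per cell cannot be told apart, which holds for every value below.

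Eln ranked at number 73 of the 16152 genes tested by control CPM, so it dominated the summed level of the 10 genes. Within each library, Eln made up 67.4%, 66.5% and 63.3% of the summed CPM in control IVDs and 73.5%, 69.7% and 75.8% in mutant IVDs. The sum of the other 9 genes was 512, 648 and 505 CPM in control and 655, 630 and 653 CPM in mutant libraries, which overlapped. The ratio of Eln to Fbn1, the main scaffold gene, overlapped as well, at 6.17, 5.002 and 4.53 in control and 7.20, 4.78 and 8.75 in mutant libraries. These ratios do not depend on the scaling between libraries, and they were chosen after the values were seen.

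Fbn1 and Fbn2 encode the fibrillins that polymerise into microfibrils, Fbn2 being used most in development. Fbn1 (chromosome 2 from 125300594 to 125507993, minus strand) was at 172, 257 and 192 CPM in control and 252, 303 and 234 CPM in mutant libraries. Control replicate 2 lay within the mutant range, and the log2 fold change was 0.34 (SE 0.21, 95% interval -0.12 to 0.81, edgeR unadjusted p = 0.131). It was 0.52 when that library was left out (edgeR unadjusted p = 0.0451), the only alternative with a p under 0.05 for Fbn1, and 0.25 when control replicate 1 or mutant replicate 2 was. Fbn2 (chromosome 18 from 58008623 to 58210487, minus strand) had 51 to 144 counts per library and was at 13.8, 5.66 and 11.3 CPM in control and 11.0, 10.9 and 12.1 CPM in mutant libraries. The 3 mutant libraries were close together and lay inside the control range. The log2 fold change of Fbn2 was 0.15 (SE 0.32, 95% interval -0.56 to 0.86) and became -0.14 without control replicate 2, the lowest library.

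Mfap4 and Mfap5 encode glycoproteins that bind fibrillin microfibrils, and the Mfap4 protein also binds tropoelastin. Mfap4 (chromosome 11 from 61485431 to 61488900, plus strand) was at 46.3, 24.8 and 25.4 CPM in control and 91.4, 46.9 and 66.1 CPM in mutant libraries. The groups did not overlap, although mutant replicate 2 was only just above control replicate 1. The means were 32.2 ± 12.3 and 68.1 ± 22.3 CPM, a log2 fold change of 1.08 (SE 0.30, 95% interval 0.42 to 1.75, edgeR unadjusted p = 0.00452, Benjamini-Hochberg adjusted p = 0.657), which was the largest among the 10 genes. Its unadjusted p was under 0.05 in all 12 alternative fits, with log2 fold changes from 0.85 to 1.46, and its adjusted p over those fits ranged from 0.00274, without a filter on low counts, to 0.999. Of the 10 genes, 5 share exonic bases with a gene on the other strand, and reads from there cannot be assigned with certainty, since the strand setting of the counting is not given in the sources used here. Mfap4 shares 89 bases with Mapk7, which held 2582 counts over the 6 libraries against 2981 for Mfap4. Efemp2 shares 173 bases with Mus81 (1819 against 9832 counts), and Fbn1 shares 2442 bases with Gm9913 (198 against 14505 counts). The overlap was 267 bases for Eln with Gm30003, a symbol not among those counted, and 129 bases for Fbn2 with Gm26507 (6 against 669 counts).

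Mfap5 (chromosome 6 from 122505845 to 122529290, plus strand) had 54 to 100 counts per library. It was at 5.78, 7.11 and 6.96 CPM in control and 11.4, 6.85 and 7.44 CPM in mutant libraries. Only mutant replicate 1 was clearly above the controls, and mutant replicate 2 lay among them. The log2 fold change was 0.37 (SE 0.31, 95% interval -0.32 to 1.05, edgeR unadjusted p = 0.260), and 0.15 when mutant replicate 1 was left out. Mutant replicate 1 held the highest level of Mfap4, Mfap5 and Fbln5, whereas mutant replicate 3 held the highest level of Eln and Fbln2.

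**Figure D3:**
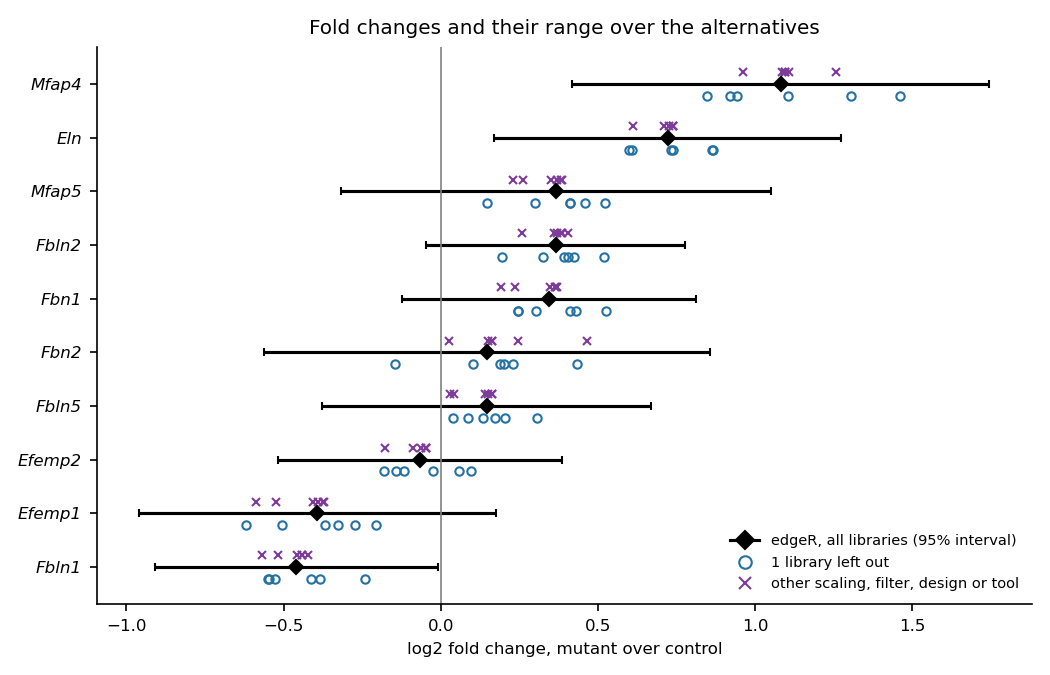
Log2 fold change of mutant over control for each gene, with edgeR's 95% interval as a black line, the fits without 1 library as open blue circles and the other 6 alternatives as purple crosses. The interval lies above 0 for Mfap4 and Eln and just below 0 for Fbln1, and circles for Fbn2 and Efemp2 fall on both sides of 0.

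The short fibulins Fbln5, Efemp1 and Efemp2 encode small calcium-binding glycoproteins, of which fibulin-5 and fibulin-4 (Efemp2) are needed for elastic fibre assembly and bring tropoelastin together with lysyl oxidases. None of these 3 genes had an unadjusted p under 0.05. Efemp2 (chromosome 19 from 5473954 to 5482517, plus strand) was at 149, 202 and 146 CPM in control and 158, 134 and 183 CPM in mutant libraries, with a log2 fold change of -0.07 (SE 0.20, 95% interval -0.52 to 0.39, edgeR unadjusted p = 0.756). Mutant replicate 2 was the lowest of the 6 libraries and the other two lay within the control range, and the sign turned, to 0.09 when control replicate 2 was left out and to 0.06 when mutant replicate 2 was.

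Fbln5 (chromosome 12 from 101746565 to 101819055, minus strand) was at 12.9, 12.9 and 11.2 CPM in control and 16.3, 14.1 and 10.5 CPM in mutant libraries. Mutant replicate 3 was the lowest of the 6, and the log2 fold change was 0.15 (SE 0.24, 95% interval -0.38 to 0.67, edgeR unadjusted p = 0.549). Leaving out mutant replicate 1 gave 0.04 and leaving out mutant replicate 3 gave 0.30. Efemp1 (chromosome 11 from 28853204 to 28926743, plus strand) was at 17.3, 25.3 and 22.1 CPM in control and 22.1, 15.3 and 12.01 CPM in mutant libraries. Mutant replicates 2 and 3 lay below all controls and mutant replicate 1 lay among them. The log2 fold change was -0.39 (SE 0.26, 95% interval -0.96 to 0.18, edgeR unadjusted p = 0.155). Leaving out 1 library moved it from -0.62 for mutant replicate 1 (edgeR unadjusted p = 0.0325) to -0.21 for mutant replicate 3 (edgeR unadjusted p = 0.442), and it was -0.59 with limma-voom and sample weights (unadjusted p = 0.0376). The remaining alternatives had p-values above 0.05.

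Fbln1 and Fbln2 encode the long fibulins, found in elastic fibres and in basement membranes, and they differed in direction between the groups. Their promoters are shown because the pair is closely related in protein family yet lay on opposite sides of the controls. The windows run from 250 bases before to 50 bases after the annotated start in RefSeq (GRCm38.p6), at chr15:85205699-85205998 for Fbln1 (its first listed start) and chr6:91212514-91212813 for Fbln2, both on the plus strand and read 5′ to 3′. Capitals mark matches, on either strand, to any of 7 short motifs.

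Fbln1: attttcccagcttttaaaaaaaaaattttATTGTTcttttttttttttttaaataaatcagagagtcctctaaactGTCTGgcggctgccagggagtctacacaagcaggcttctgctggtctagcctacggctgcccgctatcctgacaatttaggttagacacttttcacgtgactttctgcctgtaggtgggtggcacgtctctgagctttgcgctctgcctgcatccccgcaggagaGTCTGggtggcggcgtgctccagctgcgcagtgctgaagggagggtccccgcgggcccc
Fbln2: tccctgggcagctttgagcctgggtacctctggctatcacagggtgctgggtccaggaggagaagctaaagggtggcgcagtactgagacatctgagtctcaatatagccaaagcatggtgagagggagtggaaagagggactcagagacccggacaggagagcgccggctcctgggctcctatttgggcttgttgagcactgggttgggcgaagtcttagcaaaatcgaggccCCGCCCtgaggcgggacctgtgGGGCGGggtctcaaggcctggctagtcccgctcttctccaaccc

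The search used 7 motifs, each on both strands, and no matches overlapped in these windows. In the Fbln2 window the capitals are 2 matches to the GC box GGGCGG, whose first bases lie at -16 and +7 from the start, a motif held by 35.7% of 32851 promoter windows of the same length. In the Fbln1 window the match at -221 is to the SOX motif AACAAT, held by 10.7% of all windows. The Fbln1 matches at -174 and -9 are to the SMAD motif CAGAC, held by 49.6% of all windows. A second listed start of Fbln1, 59 bases downstream, had GC boxes at -11 and +12. GC content was 51.7% in the Fbln1 window and 60.3% in the Fbln2 window, with a median of 52.7% over all windows.

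Promoters of 6 of the 10 genes were searched, with 10 windows among them. Any window of the 10 genes on chromosome 18, where Fbn2 lies, was left out. The 2 windows of Fbln1 overlap, as do 2 of the 3 of Efemp2, so some matches are counted in more than 1 window. Of the 10 windows, 8 held the GC box, 6 the SMAD motif and 2 the SOX motif. The TATA box, searched as TATAAA, was in 0 of these 10 windows and in 13.6% of all windows. The CCAAT box was in 1 of 10 and in 37.4% of all windows. The AP-1 motif TGANTCA was in 1 of 10 and in 7.81% of all windows. The STAT motif TTCNNNGAA was in 0 of 10 and in 8.3% of all windows. These matches describe the sequence only.

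Fbln1 (chromosome 15 from 85205949 to 85286535, plus strand) was at 32.96, 50.3 and 33.5 CPM in control and 27.9, 25.9 and 31.1 CPM in mutant libraries. Every mutant library lay below every control library, by a small margin for mutant replicate 3, and control replicate 2 was far above the rest. The means were 38.93 ± 9.84 and 28.3 ± 2.65 CPM, a log2 fold change of -0.46 (SE 0.20, 95% interval -0.91 to -0.01, edgeR unadjusted p = 0.0460, Benjamini-Hochberg adjusted p = 0.691). Without control replicate 2 the log2 fold change in edgeR was -0.24 (unadjusted p = 0.242). The unadjusted p was also above 0.05 when any 1 of the 3 mutant libraries was left out (log2 fold changes -0.41, -0.38 and -0.53 without mutant replicates 1, 2 and 3), so the call rests on single libraries.

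Fbln2 (chromosome 6 from 91212455 to 91272540, plus strand) was at 62.3, 63.4 and 56.6 CPM in control and 64.9, 73.4 and 96.5 CPM in mutant libraries. The groups did not overlap, but mutant replicate 1 lay very close to the controls and mutant replicate 3 far above them. The means were 60.8 ± 3.65 and 78.3 ± 16.3 CPM, a log2 fold change of 0.37 (SE 0.19, 95% interval -0.05 to 0.78, edgeR unadjusted p = 0.0760). Leaving out mutant replicate 1 gave 0.52 (edgeR unadjusted p = 0.0265) and leaving out mutant replicate 3 gave 0.19 (edgeR unadjusted p = 0.323), while limma-voom gave 0.40 (unadjusted p = 0.0485). Scaled by plain library sizes, the groups of Fbln2 overlapped. The ratio of Fbln2 to Fbln1 within each library, which needs no scaling, was 1.89, 1.26 and 1.69 in control and 2.33, 2.84 and 3.10 in mutant libraries. All 3 mutant ratios were above all 3 control ratios, and this ratio was chosen after the values were seen.

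Across the 6 libraries, log2 CPM of Eln followed that of Fbln2 (Pearson r = 0.80) and Mfap4 (r = 0.78) most closely among the 10 genes, and Fbln1 followed Efemp2 (r = 0.76). The lowest correlation was between Fbln2 and Efemp1 (r = -0.85). The points share library, depth and group, so these are descriptions over 6 libraries. The genes outside the list most like the mean profile of the 10 were Mcpt4 (r = 0.996), at 0.391 to 2.28 CPM, Ppp6r2 (r = 0.994), at 27.8 to 41.8 CPM, and C4b (r = 0.989), at 47.6 to 156 CPM.

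The other genes of the pathway comprised 42 genes in 6 lists, of which 41 were tested. The unadjusted p was under 0.05 for 5 genes that were higher (2.89% of all genes tested) and 3 that were lower in mutant IVDs (4.32% of all genes tested), and 0 passed the adjusted threshold with edgeR (2 without a filter on low counts, 0 with DESeq2). The count of higher genes was 4 to 9 over the alternatives. Without a filter on low counts, 9 of 42 were higher (8.62% of all genes in that fit, in either direction). DESeq2 (6.06%, also of 42) and limma-voom (9.14%) gave 8, as did leaving out control replicate 2 (5.59%) or mutant replicate 2 (9.76%). Leaving out control replicate 1 (14.1%) or mutant replicate 3 (5.10%) gave 7. Plain library sizes (7.57%) and the replicate block (6.78%) gave 4. The lower count was 1 with the replicate block, without either library numbered 2, and without mutant replicate 3. In the fit reported, fold changes of these pathway genes were above 0 for 33 of 41, against 48.4% of all genes tested. The median on the log2 scale was 0.20, against -0.01. The range of the median over the alternatives was 0.09, with plain library sizes, to 0.33, without mutant replicate 1.

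**Figure D4:**
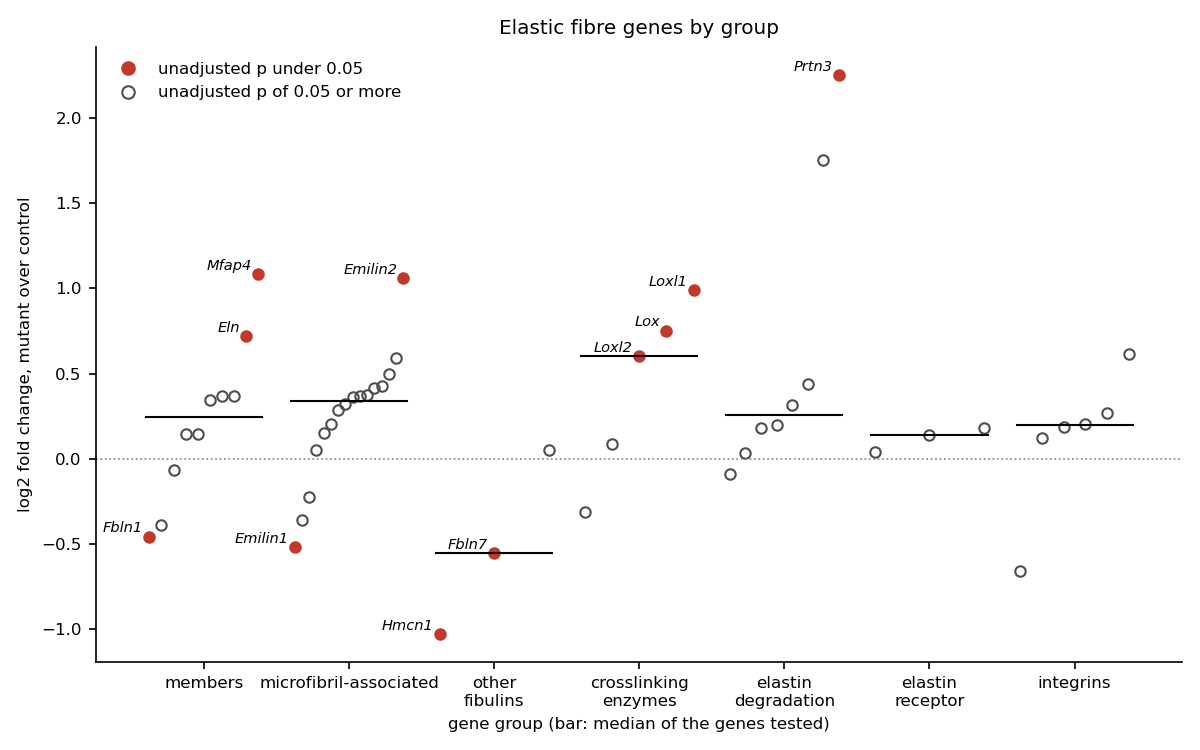
Log2 fold change of mutant over control for the 10 genes (members) and the 6 lists of other pathway genes, 1 point per gene tested, with filled red points for an unadjusted p under 0.05 and a bar at each list's median. The crosslinking enzymes have 3 filled points above 0, where 2.89% of all genes tested fall, and the other fibulins have 2 below 0, where 4.32% fall.

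Lysyl oxidases crosslink tropoelastin and collagens. Of 5 crosslinking genes, 3 had an unadjusted p under 0.05, all higher in mutant IVDs, as were 2.89% of all genes tested. The median log2 fold change of the list was 0.60, and 0.39 without mutant replicate 2. Loxl1, whose product crosslinks mainly elastin and binds fibulin-5, was at 41.6, 71.2 and 39.2 CPM in control and 113, 57.2 and 132 CPM in mutant libraries. Mutant replicate 2 lay among the controls, and the log2 fold change was 0.99 (SE 0.32, edgeR unadjusted p = 0.0118), or 0.75 without mutant replicate 3 (edgeR unadjusted p = 0.0574). Lox was at 33.8, 24.9 and 19.2 CPM in control and 49.96, 51.2 and 29.7 CPM in mutant libraries, a log2 fold change of 0.75 (SE 0.26, edgeR unadjusted p = 0.0162). Here mutant replicate 3 lay among the controls, and leaving out control replicate 3 gave an edgeR p of 0.0645 and leaving out mutant replicate 2 gave 0.0555. Loxl2, a crosslinker of basement membrane collagen, was at 341, 267 and 208 CPM in control and 346, 535 and 358 CPM in mutant libraries (log2 fold change 0.60, SE 0.25, edgeR unadjusted p = 0.0366). Its groups did not overlap, but control replicate 1 and mutant replicate 1 were nearly equal, and its edgeR p was 0.0846, 0.130 and 0.157 when control replicate 2, control replicate 3 and mutant replicate 2 were left out in turn. Loxl3 was the most abundant of the list by CPM, at 444 ± 141 in control and 471 ± 37.6 in mutant IVDs. Only 1 of the 5 genes had an unadjusted p under 0.05 without control replicate 3 or without mutant replicate 2. In those fits 3.77% and 9.76% of all genes did, in either direction.

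Of 16 microfibril-associated genes, 13 had a fold change above 0, against 48.4% of all genes tested, and the median log2 fold change was 0.34. The median was 0.22 without control replicate 3 and 0.21 with plain library sizes. At an unadjusted p under 0.05, 1 was higher and 1 lower, against 2.89% and 4.32% of all genes tested. The count of higher genes was 3 without control replicate 1 (14.1% of all genes in that fit, in either direction). It was 4 without control replicate 2 (5.59%) or mutant replicate 2 (9.76%), and 2 without control replicate 3 (3.77%) or mutant replicate 3 (5.10%). Among the other fits it was 4 with limma-voom (9.14%), and 3 without a filter on low counts (8.62%) and with DESeq2 (6.06%). Emilin1, an elastin- and fibulin-binding glycoprotein gene and the most abundant of the list by CPM in control but not in mutant IVDs, was at 594, 643 and 452 CPM in control and 415, 364 and 399 CPM in mutant libraries. All mutant libraries lay below all controls, with a log2 fold change of -0.52 (SE 0.20, edgeR unadjusted p = 0.0292). The p of Emilin1 was above 0.05 when any library other than control replicate 3 was left out, at most 0.101 without control replicate 2. With the replicate block in edgeR its log2 fold change was -0.49 (unadjusted p = 0.0563). Emilin2 was at 7.06, 4.77 and 5.78 CPM in control and 11.8, 11.1 and 13.9 CPM in mutant libraries, without overlap (log2 fold change 1.06, SE 0.27, edgeR unadjusted p = 0.00278). Its whole span lies inside Gm26561 on the opposite strand, which held 60973 counts over the 6 libraries against 554 for Emilin2, with no exonic bases shared between them. Ltbp3, a latent transforming growth factor beta binding protein gene, was at 466 ± 112 CPM in control and 538 ± 110 CPM in mutant IVDs.

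The 3 other fibulin genes had a median log2 fold change of -0.55, against -0.01 for all genes tested, and 2 were lower at an unadjusted p under 0.05, against 4.32% of all genes. The count was 1 when any library other than control replicate 1 was left out, and also with limma-voom and with the replicate block. In these fits 3.77% to 9.76% of all genes, in either direction, had an unadjusted p under 0.05. Fbln7 was at 139, 153 and 113 CPM in control and 104, 82.7 and 89.5 CPM in mutant libraries. Each mutant library lay below each control library, with a log2 fold change of -0.55 (SE 0.19, edgeR unadjusted p = 0.0134), and leaving out control replicate 2 or mutant replicate 2 gave edgeR p-values of 0.0526 and 0.0550. Hmcn1, a large hemicentin gene, was at 8.99, 5.995 and 18.9 CPM in control and 3.76, 6.69 and 6.16 CPM in mutant libraries, and the groups overlapped. Its log2 fold change of -1.03 (SE 0.43, edgeR unadjusted p = 0.0378) was -0.42 without control replicate 3 (edgeR unadjusted p = 0.311), and leaving out mutant replicate 1 or mutant replicate 3 gave p-values of 0.127 and 0.0683. Over 36.7% of its span Hmcn1 is overlapped by Gm20631 on the opposite strand, with 255 counts against 553 for Hmcn1. Hmcn2 was at 9.85 ± 2.61 and 10.2 ± 3.03 CPM.

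Of 8 tested genes for elastin-degrading proteases, 1 was higher at an unadjusted p under 0.05, against 2.89% of all genes tested. The count was 0 with the replicate block (6.78% of all genes in that fit, in either direction). It was 3 of 9 tested without a filter on low counts (8.62%) and 2 of 9 with DESeq2 (6.06%). Without mutant replicate 2 it was 3 (9.76%). It was 2 when control replicate 2 (5.59%), control replicate 3 (3.77%) or mutant replicate 3 (5.10%) was left out. The 1 gene was Prtn3, a neutrophil serine protease gene, at 0, 2.89 and 2.19 CPM in control and 14.8, 6.28 and 3.51 CPM in mutant libraries (log2 fold change 2.26, SE 0.88, edgeR unadjusted p = 0.0285). Without mutant replicate 1 it was 1.57 (edgeR unadjusted p = 0.155). The threshold was also missed with DESeq2 (unadjusted p = 0.109), limma-voom (unadjusted p = 0.0628) and the replicate block in edgeR (unadjusted p = 0.0572). Of the 4 neutrophil markers, Mpo was at 2.25, 4.55 and 5.47 CPM in control and 30.5, 11.8 and 12.7 CPM in mutant libraries, without overlap (edgeR unadjusted p = 0.000661). S100a8, S100a9 and Ngp overlapped between the groups and had an unadjusted p above 0.05. The count of the 4 with an unadjusted p under 0.05 was 1, against 7.21% of all genes in either direction. It was 3 when control replicate 3 (3.77% of all genes in that fit) or mutant replicate 3 (5.10%) was left out. Without a filter on low counts it was also 3 (8.62%). Their median log2 fold change of 1.005 was 0.22 without mutant replicate 1 and 1.69 without control replicate 3. The 4 summed to 12.2 to 35.3 CPM in control and 22.7 to 101 CPM in mutant libraries, and their part in the Prtn3 level was not tested. The metalloproteinase genes Mmp14 and Mmp2, the most abundant of the list by CPM, were at 266 ± 48.2 and 136 ± 27.2 CPM in control and 272 ± 16.3 and 183 ± 20.2 CPM in mutant IVDs. None of the 3 elastin receptor complex genes, with Ctsa at 147 ± 25.4 and 151 ± 21.2 CPM and Glb1 at 39.0 ± 5.08 and 44.0 ± 9.61 CPM, had an unadjusted p under 0.05. The same held for the 6 integrin genes, of which Itga5 was at 265 ± 53.3 and 319 ± 44.7 CPM and Itgb5 at 195 ± 20.6 and 222 ± 47.5 CPM.

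Markers of fibrous cell types also differed in level between libraries. Of 8 tendon and outer annulus genes, 3 were higher at an unadjusted p under 0.05 (2.89% of all genes tested) and 7 had a fold change above 0, their median log2 fold change was 0.67, and their summed level was 10626 to 25975 CPM in control and 22936 to 40965 CPM in mutant libraries, which overlapped. Mutant replicate 2 had the highest of these sums and the lowest Eln and Mfap4 among the mutant libraries. Col1a1 at 19450 CPM and Col1a2 at 16184 CPM made up most of its sum. Among the mutant libraries Tnmd, Mkx, Thbs4, Fmod, Kera and Col1a2 were highest in mutant replicate 2. Scx was lowest there and Col1a1 lay between the other mutant libraries. Tnmd and Thbs4 did not overlap between the groups (log2 fold changes 0.96 and 1.09, edgeR unadjusted p = 0.00376 and 0.00114), while Col1a1 did (1.05, unadjusted p = 0.0429). The edgeR p of Col1a1 was 0.0802 and 0.107 without control replicates 2 and 3, and 0.0862 and 0.111 without mutant replicates 2 and 3. The count of 3 became 2 without control replicate 3 (3.77% of all genes in that fit, in either direction) or mutant replicate 3 (5.10%). It was 4 with the replicate block (6.78%), DESeq2 (6.06%) and limma-voom (9.14%), and without control replicate 1 (14.1%) or mutant replicate 1 (4.76%). Without a filter on low counts it was 5 (8.62%). The adjusted threshold was passed by 2 of the 8 without a filter, 1 with DESeq2 and 1 without control replicate 1. In the same list the first marker, Scx, was at 33.2, 60.8 and 30.2 CPM in control and 54.4, 35.4 and 81.7 CPM in mutant libraries. Per 100 counts of Col1a1, the main collagen of the outer annulus, Eln was at 8.25, 16.2 and 22.5 in control and 15.8, 7.44 and 10.1 in mutant libraries, and here the groups overlapped. Per 100 counts of Col2a1, Eln was at 0.972, 1.15 and 1.39 in control and 1.46, 1.47 and 1.71 in mutant libraries, with no overlap. Col2a1 (log2 fold change 0.27) was among the 2 of 6 cartilage genes above 0, and 4 were below 0. Their median was -0.27 (-0.01 for all genes tested), and -0.38 to -0.15 over the alternatives. Their sums, mostly Col2a1 in every library, overlapped (71503 to 123029 CPM in control and 106231 to 133957 CPM in mutant libraries). The first, Acan, was at 5158 ± 440 and 4208 ± 765 CPM, and Matn3 was the 1 without overlap (-0.78). Eln was not set against the other cartilage genes.

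All 6 smooth muscle and mural genes had a fold change above 0, and their sum was 351 to 445 CPM in control and 482 to 716 CPM in mutant libraries, without overlap. Of the 6, 0 had an unadjusted p under 0.05 in edgeR, where 7.21% of all genes did. The count was 3 without a filter on low counts (8.62% of all genes in that fit), 3 with limma-voom (9.14%) and 2 with DESeq2 (6.06%). It was 2 when control replicate 1 (14.1%) or mutant replicate 1 (4.76%) was left out, and 1 when mutant replicate 2 was (9.76%). The defining marker Myh11 was at 42.9, 46.9 and 56.2 CPM in control and 57.1, 54.7 and 51.2 CPM in mutant libraries, which overlapped, whereas Rgs5 (43.4 to 47.0 and 50.5 to 68.2 CPM) and Pdgfrb (38.8 to 67.1 and 71.0 to 75.5 CPM) did not. The sums for loose connective tissue fibroblasts (214 to 230 CPM in control and 225 to 356 CPM in mutant libraries) and endothelium (90.2 to 191 and 154 to 177 CPM) overlapped between the groups. So did their first markers, Pdgfra at 12.5 to 16.5 and 14.2 to 24.0 CPM and Pecam1 at 36.5 to 76.9 and 57.0 to 74.5 CPM. For endothelium the overlap came from control replicate 1 alone, at 191 CPM, since the other control libraries summed to 90.2 and 116 CPM. Of its 5 genes, 0 had an unadjusted p under 0.05 in edgeR, where 7.21% of all genes did. The count was 3 without control replicate 1 (14.1% of all genes in that fit) and with limma-voom (9.14%). It was 1 with the replicate block (6.78%) and without a filter on low counts (8.62%). The median log2 fold change of the 5 was 0.33, with 0.70 without control replicate 1 and 0.11 without control replicate 2. Of the fibroblast list, Dpt did not overlap, at 60.7 to 92.1 CPM in control and 92.5 to 134 CPM in mutant libraries (edgeR unadjusted p = 0.0378), and its edgeR p was 0.104, 0.0849 and 0.167 when control replicate 1, control replicate 2 and mutant replicate 3 were left out in turn. Of the osteoblast genes, Bglap did not overlap (5.83 ± 0.624 and 18.1 ± 7.26 CPM, edgeR unadjusted p = 0.000415), while their sums did (341 to 566 and 442 to 709 CPM). Of the erythroid genes, Slc4a1 did not overlap (2.49 ± 1.77 and 15.9 ± 10.2 CPM, edgeR unadjusted p = 0.00114). Hbb-bs, the first erythroid marker (65.9 ± 68.8 and 109 ± 32.1 CPM), and the erythroid sums (33.4 to 294 and 184 to 372 CPM) overlapped. All of these lists had a summed level above 0 in every library, and the part of such cells in the levels of the elastic fibre genes was not tested.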

How the data were processed

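Total RNA of pooled IVDs was poly(A)-selected and sequenced by the authors. The authors deposited raw counts per gene symbol, 1 file per library. The methods name Cutadapt, FastQC, HISAT2 with GRCm38.88, StringTie and FPKM values tested in Ballgown, while the submitters' processing notes name STAR 2.5.3a, HTSeq, DESeq2, mm10 and GRCm38. The strand setting is not given in the sources used here. The deposited comparison table (the authors' fold changes and p-values) was not used. The 5 closing lines that name no gene held 55.8% to 59.6% of each file's total and were left out.

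Counts were fitted with edgeR 4.0.16 (R 4.3.3; filterByExpr with a minimum count of 10, TMM, quasi-likelihood test, genotype as the only term, 3 against 3 libraries), and p-values were adjusted by Benjamini-Hochberg over all 16152 genes. Alternatives were RLE factors, plain library sizes, no filter, a replicate block, DESeq2 1.42.0, limma-voom (limma 3.58.1) with sample weights, and each library left out. The code was tested on simulated data. The exon length alternative (longest transcript) was added after the data were seen.

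The 10 genes and all lists were chosen with earlier results of these data known. All 10 are named. From each other pathway list, genes with an unadjusted p under 0.05 (at most 4) and the 2 with the highest mean CPM are named, with the 3 genes most like the mean profile. Of marker lists set beside a result, the first gene and the summed CPM are given, and any further marker was chosen after its values were seen. Positions and exon lengths come from the GENCODE annotation of GRCm38. Promoters come from a RefSeq table (GRCm38.p6), and windows of 6 of the 10 genes were searched. Any window of the 10 genes on chromosome 18, which holds Fbn2, was left out. Promoters of Fbn2, Eln, Mfap4 and Mfap5 were not analysed here.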

Additional observations from a re-analysis of the deposited data

How the results depend on the processing

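With 3 pooled libraries per group, adjusted p-values of single genes depended on the fit. Over 12 alternatives, 104 of 120 gene-by-setting results kept direction and side of the unadjusted threshold, 8 lost the call, 5 gained it and 3 changed sign. The number of the 10 genes with an unadjusted p under 0.05 was 3 in the fit reported (7.21% of all genes tested), 5 with limma-voom (9.14%), 2 with the replicate block (6.78%) and with DESeq2 (6.06%), and 1 to 4 when each library was left out (3.77% to 14.1%). Without a filter on low counts 1 gene (Mfap4) passed the adjusted threshold, as did 245 of 26418 genes in all, against 1 of 16152 with the filter. DESeq2 called 52 of 26418 genes, with 0 of the 10. Without control replicate 1, the library with skeletal muscle RNA, 31 genes were called, again 0 of the 10. The cause of these differences was not tested.

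Fbln1 lost its call with the replicate block in edgeR (-0.42, unadjusted p = 0.0935) and with DESeq2 (-0.44, unadjusted p = 0.0757), and its log2 fold change was -0.55 to -0.24 without 1 library. Eln ranged from 0.60 to 0.87 without 1 library. Signs changed for Fbn2 (-0.14 to 0.44 without 1 library) and Efemp2 (-0.18 to 0.0949 without 1 library, and 0.06 without mutant replicate 2). Plain library sizes moved the median of all genes from -0.01 to -0.13 and the share above 0 from 48.4% to 34.0%, and the median of the 10 from 0.25 to 0.13. Same-numbered libraries did not deviate together in all pairs (r = 0.159, -0.132 and 0.101), and unlike-numbered pairs gave -0.265 to 0.179. Deviations from group means over so few libraries cannot decide whether equal numbers mark paired samples. Apart from Fbln1, no call among the 10 genes changed with the replicate block. Fbn2 and Mfap5, at 51 to 144 and 54 to 100 counts per library, had the widest intervals.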
